A study of Mus musculus with 12 samples.

Results

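In denervated mouse muscle, 8 genes of the Schwann cell were followed, and they are described here by their role: the myelin genes Mbp, Prx, Mag and Pmp22, the lineage genes Sox10 and S100b, and the repair-state genes Ngfr and Gfap. They were found by symbol in tables of 25094 genes each, and all 8 of 8 were listed in both tables. The samples were the gastrocnemius of male WT mice of the strains BALB/c and C57BL/6. The right sciatic nerve had been cut and its stumps turned back 180 degrees and stitched to neighbouring muscle, and the legs were sampled 2 weeks later. The 4 groups were BALB/c right legs, BALB/c left legs, C57BL/6 right legs and C57BL/6 left legs, with 3 libraries of poly(A) RNA each. The left legs are labelled healthy, and no label used here tells whether they were sham-operated. Nothing in the labels ties each library to a mouse of its own, so p-values measure the spread between these libraries, which may be technical.

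Schwann cells ensheathe the axons of peripheral nerves, and those around large axons wrap them in compact myelin. When an axon is cut, the Schwann cells downstream of the cut lose the axon, shut down their myelin genes and enter a repair state, in which they express growth factor receptors and trophic factors and help clear myelin. The gastrocnemius holds the intramuscular branches of the sciatic nerve and the terminal Schwann cells at the muscle endplates, so its RNA carries a small share from these cells. In whole muscle, fewer Schwann cells and less RNA per Schwann cell cannot be told apart.

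The tissue label was borne out by the muscle transcripts: Ckm, muscle creatine kinase, stood at 3873 to 7865 RPKM in BALB/c right legs and 20434 to 26751 RPKM in BALB/c left legs. RPKM, the unit of the deposited values, is scaled by transcript length and by the reads of the library, so levels of different genes can be set side by side. Scaling totals were 18132600 to 19282900 reads per library. A change is the right-leg mean minus the left-leg mean of log2(RPKM + 0.5), on which changes of low genes look smaller than they are. It is given with its standard error (SE) and limma's adjusted p, by Benjamini-Hochberg over the whole table. Genes count as called where that p is under 0.05. The median gene itself moved by 0.38 in BALB/c and by 0.52 in C57BL/6 on this scale, so changes are also given relative to it.

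Of the 7 genes with enough signal to test, 1 rose and 2 fell in BALB/c, and 1 rose and 0 fell in C57BL/6. Ngfr rose in both strains. Prx and Pmp22 fell in BALB/c right legs. In the background of all genes, limma called 50.2% of 14819 tested genes in BALB/c, 42.5% higher and 7.67% lower. In C57BL/6 limma called 72.2% of 14551 tested genes, 63.6% higher and 8.56% lower. Rescaled by the median of ratios between libraries, which takes most of the shift of the median gene away, the same background was 21.8% higher and 19.0% lower in BALB/c, and 28.2% higher and 26.4% lower in C57BL/6. On that scale 1 of the 7 rose and 4 fell in BALB/c, with Mag and S100b added, and 1 rose and 0 fell in C57BL/6. Without rescaling, the count of 0 fallen members in C57BL/6 was also 0 at an unadjusted p under 0.05 and 0 with limma-voom on recovered reads. The median change of the 7 genes was -0.47 in BALB/c and 0.14 in C57BL/6.

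**Figure D1:**
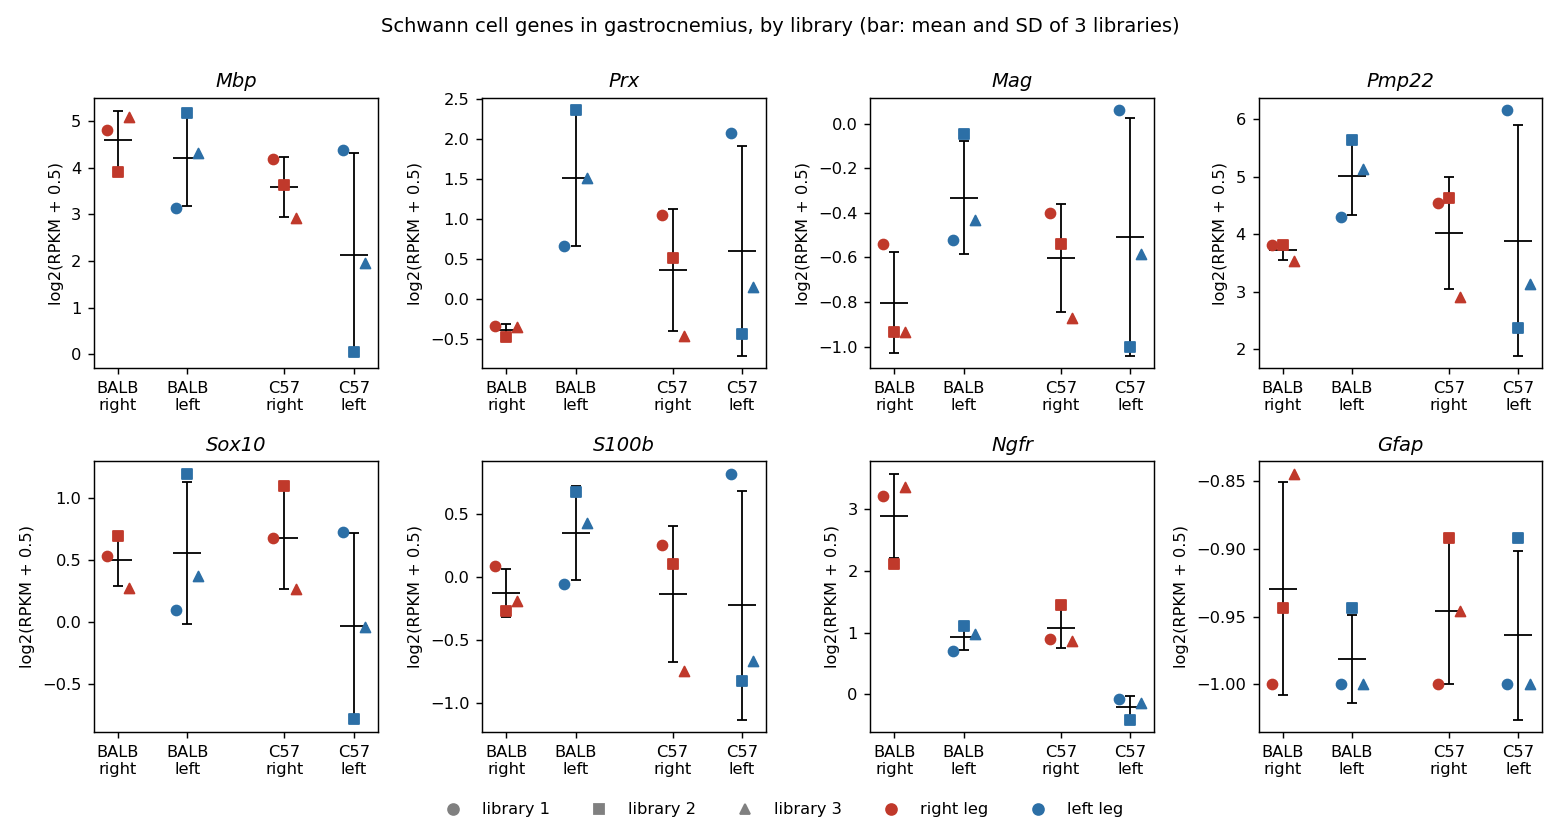
Level of each of the 8 genes in each library on the log2(RPKM + 0.5) scale, right legs in red and left legs in blue, with the mean and SD of 3 libraries as a bar. Ngfr is higher in the right legs of both strains without overlap, Prx and Pmp22 are lower in BALB/c right legs without overlap, and Gfap stays at the bottom of the scale in every library.

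Ngfr and Gfap are the repair-state genes among the 8. Ngfr encodes the low-affinity neurotrophin receptor p75, which Schwann cells make before they myelinate and again after they lose their axon. It is listed on the minus strand of chromosome 11 from 95430140 to 95449012 (mm9, the coordinates of the files). In BALB/c right legs Ngfr stood at 8.74, 3.81 and 9.72 RPKM, against 1.13, 1.66 and 1.46 RPKM in left legs. In C57BL/6 right legs it stood at 1.37, 2.22 and 1.33 RPKM, against 0.45, 0.252 and 0.407 RPKM in left legs. Every right leg lay above every left leg of its strain, a separation in this direction that 48.1% of all tested genes had in BALB/c and 66.2% had in C57BL/6. In C57BL/6, Ngfr alone of the 7 genes was free of overlap, and the opposite separation, right below left, was found for 9.57% of all tested genes.

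The change of Ngfr was 1.96 ± 0.32 (log2 ± SE) in BALB/c, with limma's adjusted p = 0.00148, and 1.28 ± 0.18 in C57BL/6, with adjusted p = 4.3e-04. Mean RPKM was 5.24 times the left-leg level in BALB/c right legs and 4.44 times in C57BL/6 right legs. Relative to the median gene, Ngfr rose by 1.58 in BALB/c and by 0.76 in C57BL/6. It was called under all 15 alternatives in each strain, with adjusted p of 2.9e-04 to 0.00727 in BALB/c and 3.2e-04 to 0.00397 in C57BL/6.

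Gfap encodes glial fibrillary acidic protein, an intermediate filament of astrocytes and of non-myelinating and repair Schwann cells. It is listed on the minus strand of chromosome 11 from 102748650 to 102758514. It had 0, 1 and 3 reads in BALB/c right legs and 0, 1 and 0 reads in BALB/c left legs. In C57BL/6 it had 0, 2 and 1 reads in right legs and 0, 2 and 0 reads in left legs. No library passed the floor of 3 reads, which for this transcript corresponds to 0.0575 to 0.0611 RPKM, and Gfap was not tested by limma. The ratio of summed reads was 3.86 in BALB/c, with an exact 95% interval of 0.382 to 190.3, and 1.49 in C57BL/6, with an interval of 0.17 to 17.8. A difference between legs was not detectable at this depth, and both intervals cover counting error only.

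Sox10 and S100b mark the lineage in both the myelin and the repair state. Sox10 encodes the transcription factor that Schwann cells need from their origin in the neural crest to the upkeep of myelin, and it lies on the minus strand of chromosome 15 from 78985343 to 78994920. Sox10 stood at 0.942, 1.12 and 0.709 RPKM in BALB/c right legs and 0.567, 1.79 and 0.795 RPKM in BALB/c left legs. The C57BL/6 values of Sox10 were 1.10, 1.64 and 0.70 RPKM in right legs and 1.15, 0.079 and 0.471 RPKM in left legs. The legs overlapped in both strains.

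The change of Sox10 was -0.05 ± 0.28 in BALB/c, with limma's adjusted p = 0.887, and 0.72 ± 0.38 in C57BL/6, with adjusted p = 0.127. In C57BL/6, 1 library decided the call: without left library 1 the change was 1.09 with adjusted p = 0.0211, and over 14 alternatives adjusted p ran from 0.0211 to 0.542. Behind these levels lay 28 to 88 reads per library in BALB/c, and 4 to 84 reads in C57BL/6.

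S100b encodes a calcium-binding protein used as a Schwann cell marker, and it is also made by adipocytes. It lies on the plus strand of chromosome 10 from 75716581 to 75724064. S100b stood at 0.566, 0.328 and 0.376 RPKM in BALB/c right legs and 0.463, 1.10 and 0.845 RPKM in BALB/c left legs. The C57BL/6 values of S100b were 0.695, 0.573 and 0.095 RPKM in right legs and 1.27, 0.064 and 0.128 RPKM in left legs. Its legs overlapped in both strains, and neither change was called: -0.47 ± 0.21 in BALB/c with limma's adjusted p = 0.0967, and 0.09 ± 0.46 in C57BL/6 with adjusted p = 0.867. In BALB/c adjusted p ran from 0.0151, after median-of-ratios rescaling, to 0.253 over 14 alternatives, and it was 0.0239 without left library 1. The 10 adipocyte markers summed to 157.9 to 286.1 RPKM in BALB/c right legs and 59.2 to 400.5 RPKM in BALB/c left legs, and their part in S100b was not tested.

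**Figure D2:**
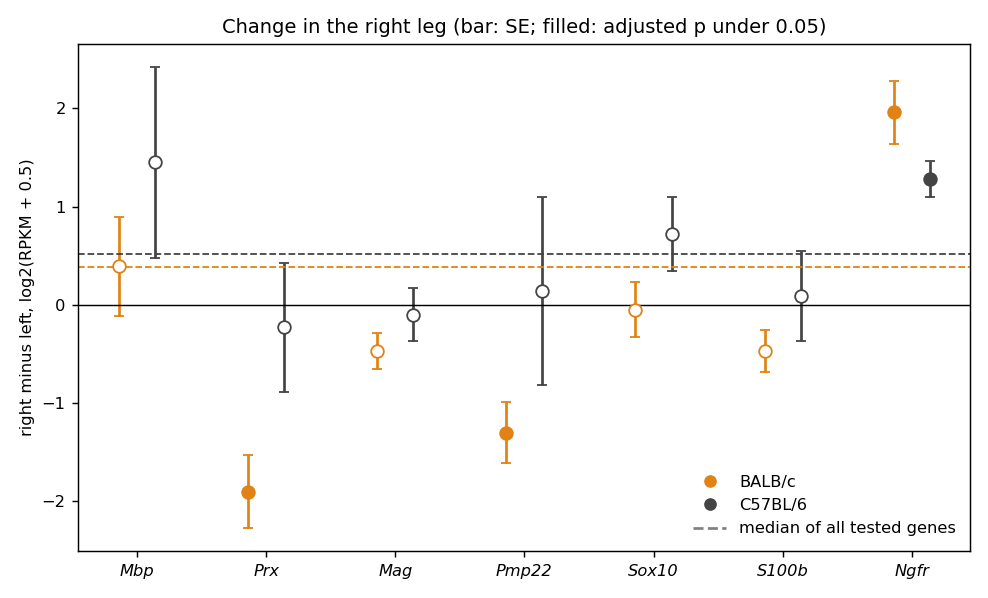
Change of the 7 tested genes as right-leg minus left-leg mean of log2(RPKM + 0.5), with its SE, BALB/c in orange and C57BL/6 in grey, filled where limma called it. Dashed lines mark the median of all tested genes, 0.38 in BALB/c and 0.52 in C57BL/6; Prx and Pmp22 lie below 0 in BALB/c and Ngfr lies above both lines.

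Among the myelin genes, Prx and Pmp22 fell in BALB/c, while Mag and Mbp did not pass the test in either strain. Prx encodes periaxin, a scaffold protein found in the membrane of myelinating Schwann cells and mutated in a demyelinating form of Charcot-Marie-Tooth disease. It lies on the plus strand of chromosome 7 from 28284343 to 28305060. Prx stood at 0.29, 0.222 and 0.289 RPKM in BALB/c right legs, against 1.09, 4.65 and 2.37 RPKM in BALB/c left legs. The right legs held 19 to 26 reads each and the left legs 93 to 393, and every right leg lay below every left leg, a separation that 10.4% of all tested genes had in this direction. Mean RPKM in left legs was 10.1 times that in right legs, and Prx fell by 1.90 ± 0.37 on the log2 scale, or by 2.28 relative to the median gene, with limma's adjusted p = 0.00353. It was called under all 15 alternatives, with adjusted p of 8.5e-04 to 0.0156.

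In C57BL/6, Prx stood at 1.57, 0.927 and 0.226 RPKM in right legs and 3.71, 0.24 and 0.616 RPKM in left legs. These values overlapped, and the change of -0.23 ± 0.66 had an adjusted p = 0.765 in limma. Left library 1 was the highest of the 6, and without it the change was 0.51.

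Pmp22 encodes a tetraspan protein of compact myelin whose dosage is altered in the commonest inherited neuropathies, and it is also made outside nerve. It lies on the plus strand of chromosome 11 from 62942484 to 62973049. Pmp22 stood at 13.5, 13.6 and 11.0 RPKM in BALB/c right legs, against 19.1, 49.3 and 34.5 RPKM in BALB/c left legs, with no overlap. Mean RPKM in left legs was 2.70 times that in right legs, and Pmp22 fell by 1.30 ± 0.31 on the log2 scale, or by 1.68 relative to the median gene, with limma's adjusted p = 0.0086. It was called under all 15 alternatives, with adjusted p of 0.00104 to 0.0336.

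In C57BL/6, Pmp22 stood at 22.7, 24.3 and 6.96 RPKM in right legs and 71.2, 4.64 and 8.25 RPKM in left legs. The left legs alone spanned the whole range of the right legs, and the change of 0.14 ± 0.96 had an adjusted p = 0.907. Its sign turned with the library left out, as it did for S100b and Prx.

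Over the 12 libraries, Prx and Pmp22 had the pattern most like each other among 10217 genes compared. The measure was the root mean square difference of log2(RPKM + 0.5) after taking off the left-leg mean of the same strain, over genes averaging 1 RPKM or more, and it was 0.50 for this pair. The next genes were Snai3, a zinc finger factor of the Snail family, at 0.71 from Prx, and Aatk, a kinase gene, at 0.75 from Pmp22. The promoters of Prx and Pmp22 are shown because the pair moved together, and that of Ngfr because it moved the other way. Each runs from 250 bases before to 50 bases after the start in RefSeq (GRCm38.p6), 5′ to 3′ on the strand of the gene. Capitals mark matches to the motif letters of the TEAD factors, GGAATG, on either strand.

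Prx promoter, chr7:27499074-27499373, plus strand: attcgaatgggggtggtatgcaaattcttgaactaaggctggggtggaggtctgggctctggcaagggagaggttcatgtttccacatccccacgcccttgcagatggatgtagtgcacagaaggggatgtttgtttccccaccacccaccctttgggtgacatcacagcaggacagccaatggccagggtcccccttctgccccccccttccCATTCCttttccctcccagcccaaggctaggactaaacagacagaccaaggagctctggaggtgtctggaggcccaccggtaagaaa

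Pmp22 promoter, chr11:63128732-63129031, plus strand: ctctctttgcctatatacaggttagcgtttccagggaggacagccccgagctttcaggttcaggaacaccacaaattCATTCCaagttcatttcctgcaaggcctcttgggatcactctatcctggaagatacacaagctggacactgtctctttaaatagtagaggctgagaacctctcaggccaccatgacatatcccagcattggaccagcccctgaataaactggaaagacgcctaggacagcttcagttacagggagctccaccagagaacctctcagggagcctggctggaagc

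Ngfr promoter, chr11:95587649-95587948, minus strand: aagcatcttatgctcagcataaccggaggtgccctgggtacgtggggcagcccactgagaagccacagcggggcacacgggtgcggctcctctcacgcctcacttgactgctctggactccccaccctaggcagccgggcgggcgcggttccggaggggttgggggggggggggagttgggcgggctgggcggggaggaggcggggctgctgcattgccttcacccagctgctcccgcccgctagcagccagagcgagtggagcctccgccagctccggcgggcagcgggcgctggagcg

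Motifs were searched on both strands in these windows: the Sox letters ACAAAG and ACAATG, the AP-1 letters TGANTCA, the TEAD letters GGAATG and the Egr letters GCGTGGGCG. The Prx window held 1 match, the TEAD letters at positions -37 to -32 relative to the start, on the opposite strand. The Pmp22 window also held 1 match, the same letters at positions -173 to -168, on the opposite strand. The Ngfr window held 0 matches. Of 32817 promoter windows of this length, 14.7% held the TEAD letters, 18.7% ACAAAG, 12.6% ACAATG, 7.81% the AP-1 letters and 0.612% the Egr letters. The G and C content was 56.7% for Prx, 50.7% for Pmp22 and 71.7% for Ngfr. The reference listed 4 starts for Pmp22, and the window shown is that of the transcript the files list. The start of the Ngfr window lay 37 bases from the annotated start of its transcript.

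Mag encodes a glycoprotein of the myelin membrane that faces the axon. It lies on the minus strand of chromosome 7 from 31684200 to 31699340 and was the lowest of the tested genes. Mag had 8, 1 and 1 reads in BALB/c right legs and 8, 19 and 10 reads in BALB/c left legs, which correspond to 0.187, 0.024 and 0.023 RPKM and to 0.197, 0.47 and 0.241 RPKM. In C57BL/6 it had 11, 8 and 2 reads in right legs and 23, 0 and 7 reads in left legs.

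The BALB/c right legs lay below the left legs without overlap, and the nearest values were 0.187 RPKM in a right leg and 0.197 RPKM in a left leg. The change of -0.47 ± 0.18 was not called, with limma's adjusted p = 0.056 and a range of 0.0212 to 0.155 over 14 alternatives. It passed the threshold under 4 of them, 1 of which left out right library 1 (adjusted p = 0.0326). The ratio of summed reads was 0.261 in BALB/c, with an exact 95% interval of 0.116 to 0.535 that covers counting error only, and 0.693 in C57BL/6, with an interval of 0.377 to 1.25. In C57BL/6 the change was -0.10 ± 0.27 with adjusted p = 0.763.

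Mbp encodes myelin basic protein, which holds the cytoplasmic faces of compact myelin together. Its locus also gives rise to golli transcripts, which are made in cells that form no myelin. It lies on the plus strand of chromosome 18 from 82723855 to 82755029. Mbp stood at 27.3, 14.4 and 33.3 RPKM in BALB/c right legs and 8.26, 35.7 and 19.3 RPKM in BALB/c left legs. The C57BL/6 values of Mbp were 17.7, 11.9 and 7.05 RPKM in right legs and 20.4, 0.539 and 3.36 RPKM in left legs. The legs overlapped in both strains.

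The change of Mbp was 0.39 ± 0.50 in BALB/c, with limma's adjusted p = 0.55, and 1.45 ± 0.97 in C57BL/6, with adjusted p = 0.214. Relative to the median gene these were 0.01 and 0.93. In C57BL/6 the call again rested on left library 1: without it the change was 2.58 with adjusted p = 0.0102, within a range of 0.0102 to 0.627 over 15 alternatives. With that library left out, Mbp, Sox10 and Ngfr were called in C57BL/6, 3 genes in place of 1. The genes whose pattern was most like that of Mbp were Cadm4, an adhesion molecule of the Schwann cell at its contact with the axon, at 0.66, and Gatm, an enzyme of creatine synthesis, at 0.77.

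The left legs of C57BL/6 differed widely from one another. Between the highest and the lowest left library, Mbp differed 37.8-fold, S100b 19.9-fold, Prx 15.5-fold, Pmp22 15.3-fold and Sox10 14.5-fold, while Ngfr differed 1.79-fold. In BALB/c left legs the same ratios were 4.32 for Mbp, 2.37 for S100b, 4.25 for Prx, 2.59 for Pmp22, 3.16 for Sox10 and 1.47 for Ngfr. In C57BL/6 left legs the SD of Mbp was 2.17 on the log2 scale and that of Pmp22 2.01, against a median of 0.12 over all tested genes. An SD at or above that of Mbp was found in 0.0137% of tested genes, and one at or above that of Pmp22 in 0.0344%. Ngfr had an SD of 0.18, which 25.0% of genes reached.

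**Figure D3:**
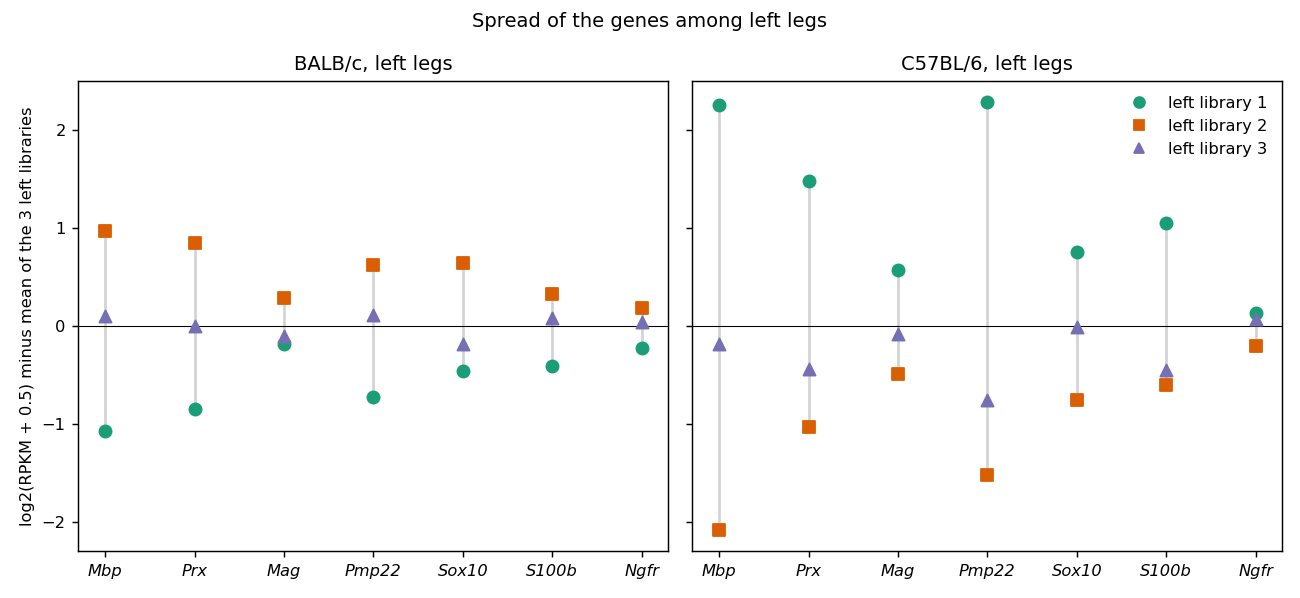
Spread of the 7 tested genes among the 3 left libraries of each strain, as log2(RPKM + 0.5) minus the mean of those libraries, BALB/c at the left and C57BL/6 at the right, with symbols for the libraries. In C57BL/6 library 1 is highest and library 2 lowest for every gene, and in BALB/c library 2 is highest and library 1 lowest for every gene.

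The 7 tested genes ranked the left libraries alike. In BALB/c left legs, library 2 was highest and library 1 lowest for 7 of 7, an order that 37.5% of all tested genes had, and that 10 of 16 other myelin genes, 12 of 22 other repair-state genes and 12 of 14 lineage genes had. In C57BL/6 left legs, library 1 was highest and library 2 lowest for 7 of 7, an order that 14.4% of all tested genes had, and that 12 of 15 other myelin genes, 3 of 21 other repair-state genes and 3 of 12 lineage genes had. In right legs the commonest order held for 2 of 7 genes in BALB/c and 4 of 7 in C57BL/6. The BALB/c order was also found outside the Schwann cell genes. In left libraries 1, 2 and 3, macrophage markers summed to 62.8, 106.3 and 67.9 RPKM, and fibroblast markers to 609.8, 956.3 and 771.9 RPKM. Muscle fibre markers ran the other way, at 116722.5, 89315.3 and 109721.3 RPKM, and some marker lists had neither order. These counts and sums are descriptions of the libraries, and how much nerve each piece of muscle held was not tested.

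A ratio to Sox10 within each library sets a gene against another gene of the same lineage. Prx over Sox10 was 0.308, 0.197 and 0.408 in BALB/c right legs, against 1.93, 2.59 and 2.98 in BALB/c left legs, so the mean ratio was 8.21 times higher in left legs. Pmp22 over Sox10 was 14.4, 12.1 and 15.5 in BALB/c right legs, against 33.6, 27.5 and 43.4 in left legs. Its mean ratio was 2.49 times higher in left legs. Both ratios were lower in every BALB/c right leg. Mag over Sox10 was lower there too, at 0.198, 0.0217 and 0.0328 against 0.347, 0.262 and 0.303 in left legs. The same held for S100b over Sox10, at 0.6, 0.292 and 0.53 against 0.817, 0.613 and 1.06 in left legs. S100b is a lineage gene, so a lower ratio to Sox10 was not confined to the myelin genes. Mbp over Sox10 was 29.0, 12.8 and 47.0 in BALB/c right legs and 14.6, 19.9 and 24.3 in left legs, which overlap. Ngfr over Sox10 was 9.28, 3.39 and 13.7 in BALB/c right legs, against 1.99, 0.925 and 1.83 in left legs.

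In C57BL/6 these ratios overlapped between the legs. Prx over Sox10 was 1.43, 0.567 and 0.323 in right legs and 3.23, 3.05 and 1.31 in left legs, and right library 1 lay above left library 3. Pmp22 over Sox10 was 20.6, 14.8 and 9.95 in right legs and 62.0, 58.9 and 17.5 in left legs. Despite the overlap, the mean ratio was 3.27 times higher in left legs for Prx and 3.05 times higher for Pmp22. For Mbp the mean ratio in right legs was 1.06 times that in left legs. Left library 2 held 4 Sox10 reads, so its ratios have wide counting intervals. Ngfr over Sox10 was 1.25, 1.36 and 1.91 in right legs and 0.392, 3.19 and 0.864 in left legs.

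**Figure D4:**
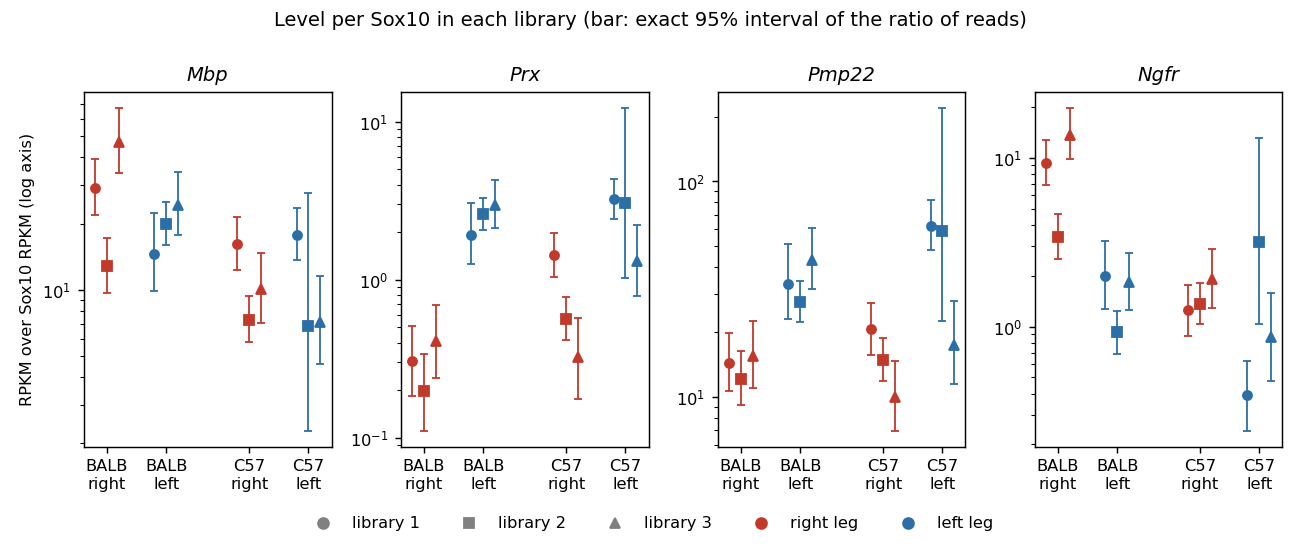
RPKM of Mbp, Prx, Pmp22 and Ngfr over that of Sox10 in each library on a log axis, right legs in red and left legs in blue, with the exact 95% interval of the ratio of reads as a bar. In BALB/c, Prx and Pmp22 per Sox10 are lower and Ngfr per Sox10 is higher in every right leg, while Mbp per Sox10 overlaps; in C57BL/6 all 4 overlap.

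A level of the myelin genes minus that of the repair genes, the mean log2(RPKM + 0.5) of Mbp, Prx, Mag and Pmp22 minus that of Ngfr and Gfap, was 0.83, 1.00 and 0.58 in BALB/c right legs, against 2.04, 3.20 and 2.65 in BALB/c left legs. The difference was -1.83, with a within-leg SD of 0.44. In C57BL/6 it was 2.39, 1.78 and 1.16 in right legs and 3.71, 0.90 and 1.73 in left legs, a difference of -0.34 with a within-leg SD of 1.11. Since Gfap was near 0 throughout, this level sets the myelin genes mainly against Ngfr. It carries no test, because the genes were chosen with results known. The mean of the myelin genes minus Sox10 differed by -0.77 in BALB/c (SD 0.30) and by -0.40 in C57BL/6 (SD 0.63).

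The change in right legs was compared between strains in 1 model over 12 libraries. In that contrast, BALB/c minus C57BL/6, limma called 6.09% of 14165 genes, 1.76% higher and 4.33% lower, and 0 of the 7 Schwann cell genes, with 0 also at an unadjusted p under 0.05 and 0 with limma-voom. The difference was -1.67 ± 0.84 for Prx (adjusted p = 0.243), -1.44 ± 1.12 for Pmp22 (adjusted p = 0.449) and -1.07 ± 1.22 for Mbp (adjusted p = 0.618). For Ngfr it was 0.68 ± 0.40 (adjusted p = 0.324), and 1 library decided the call: without BALB/c right library 2 it was 1.07 with adjusted p = 0.0314, within a range of 0.0314 to 0.902 over 21 alternatives. The fall of Prx and Pmp22 that was called in BALB/c was thus not shown to differ from the change in C57BL/6, where the standard errors were 0.66 and 0.96.

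Other genes of peripheral myelin were counted next. In BALB/c, where 7.67% of all tested genes were lower, 7 of 16 tested fell and 0 rose, with 0 risen also at an unadjusted p under 0.05 and with limma-voom, and a median change of -0.32 against 0.38 for all tested genes. Median-of-ratios rescaling, which takes the median gene to 0.02, gave 11 that fell and 0 that rose, where 19.0% of all tested genes were lower, and leaving out a library gave 6 to 8 that fell. Ncmap, a membrane protein of non-compact myelin, had 0, 0 and 0.036 RPKM in BALB/c right legs, against 0.532, 1.49 and 2.31 RPKM in left legs. It fell by 1.81 ± 0.32 on the log2 scale, with limma's adjusted p = 0.00235. Cldn19, a claudin of the tight junctions of Schwann cells, had 0.181, 0 and 0 RPKM in right legs, against 0.445, 2.43 and 1.44 RPKM in left legs, and fell by 1.66 ± 0.37 with adjusted p = 0.00694.

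The fatty acid binding protein gene Pmp2 had no read in any BALB/c right leg and 64 reads over the left legs, so it was at least 22.1-fold lower in right legs, with the floor of 3 reads taken over the group. Gjb1, the connexin 32 of non-compact myelin, likewise had no read in right legs and 26 in left legs, at least 8.95-fold lower. The others that fell were Mal, Dusp15 and Gjc3, and with Pmp2 and Gjb1 they were picked out after their values were seen. For Gjc3 limma's adjusted p was 0.0458, a call that held in 0 of the 3 fits without a library that tested this gene.

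Cnp, an enzyme of non-compact myelin chosen here after its values were seen, was not called. It had 4.47, 4.83 and 4.52 RPKM in BALB/c right legs and 3.79, 6.30 and 3.79 RPKM in BALB/c left legs, which overlap.

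In C57BL/6, 1 of 15 tested genes of that myelin list rose and 0 fell. Of all tested genes, 63.6% were higher and 8.56% lower in this strain. The count that fell in the list was 0 also at an unadjusted p under 0.05 and with limma-voom. Its median change was 0.13 against 0.52 for all tested genes. On the median-of-ratios scale, 1 gene of the list was called higher and 1 lower, against 28.2% and 26.4% of all tested genes. The gene that rose was Egr2, the transcription factor that switches on peripheral myelin genes. It had 0.282, 1.11 and 1.38 RPKM in right legs, against 0.203, 0 and 0.123 RPKM in left legs, a change of 1.15 ± 0.32 with adjusted p = 0.0137. Leaving out left library 1 gave 4 genes that rose in place of 1, and leaving out right library 3 gave 3. The summed RPKM of the list was 14.2 to 16.7 in BALB/c right legs and 14.0 to 30.5 in BALB/c left legs, and 9.86 to 22.1 in C57BL/6 right legs and 5.21 to 28.5 in C57BL/6 left legs.

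**Figure D5:**
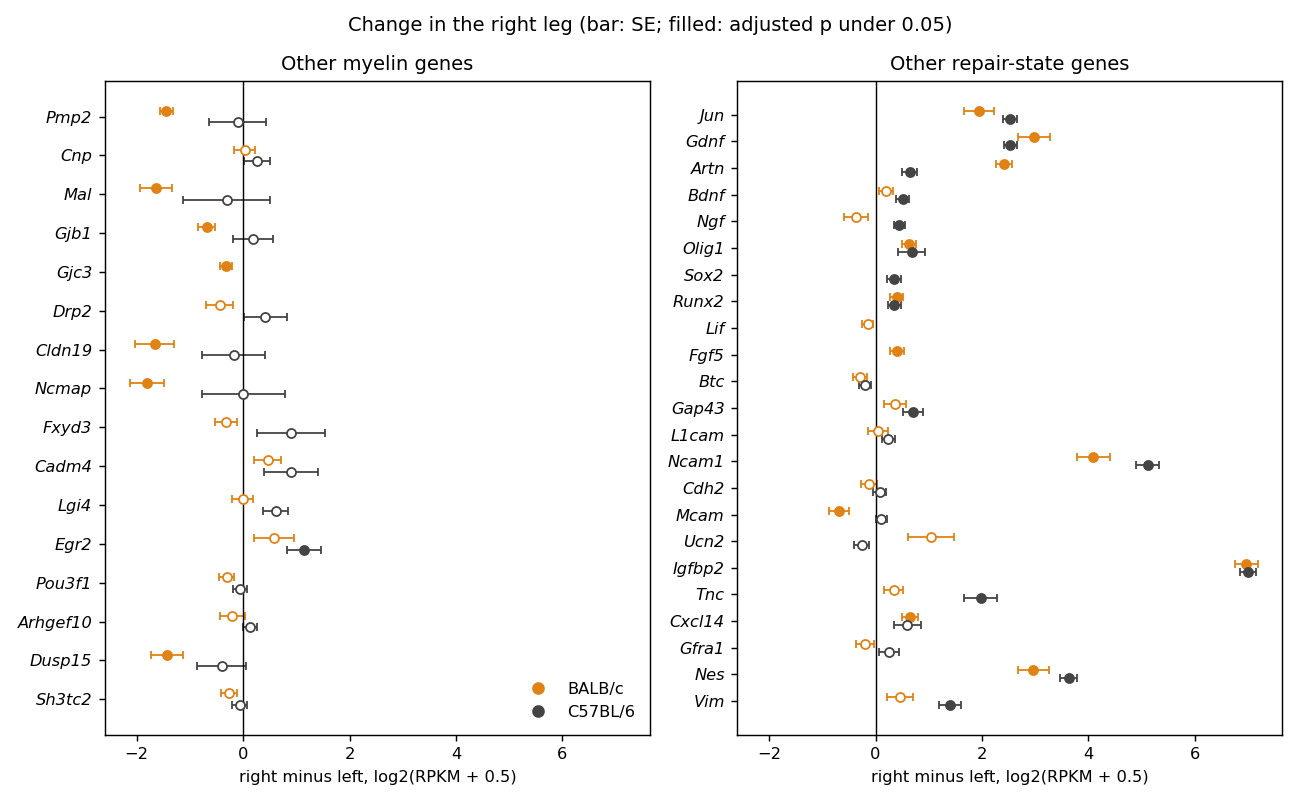
Change of the other myelin genes and of the other repair-state genes as right-leg minus left-leg mean of log2(RPKM + 0.5), with its SE, BALB/c in orange above C57BL/6 in grey, filled where limma called it. In BALB/c 7 of 16 myelin genes are filled below 0, with Ncmap at -1.81, where 7.67% of all tested genes were lower. Filled above 0 are 10 of 22 repair-state genes in BALB/c, where 42.5% of all tested genes were higher. In C57BL/6 14 of 21 are, where 63.6% were higher.

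Enzymes of myelin lipids behaved variously. In BALB/c, 3 of 12 tested fell and 2 rose, where 7.67% of all tested genes were lower and 42.5% higher. The count that fell was 0 without right library 1 or 2, 1 without right library 3, left library 2 or left library 3, and 2 without left library 1. Fa2h, which makes the hydroxylated fatty acids of myelin lipids, had 0.063, 0.088 and 0.042 RPKM in BALB/c right legs, against 0.221, 1.40 and 0.715 RPKM in left legs, and fell with limma's adjusted p = 0.0208, a call that held in 2 of 6 fits without a library. In C57BL/6, where 63.6% were higher, 4 of 12 rose and 1 fell. The 2 that rose in BALB/c, Cers2 and Mvd, also rose in C57BL/6. Both serve lipid synthesis in many cell types.

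Of the repair-state genes other than Ngfr and Gfap, 10 of 22 tested rose and 1 fell in BALB/c, where 42.5% of all tested genes were higher, with a median change of 0.41 against 0.38 for all tested genes. In C57BL/6, where 63.6% were higher, 14 of 21 rose and 0 fell, with 0 fallen also at an unadjusted p under 0.05 and with limma-voom, and a median of 0.60 against 0.52. Rescaled by the median of ratios, 7 rose and 4 fell in BALB/c, where 21.8% of all tested genes were higher and 19.0% lower. On that scale 9 rose and 3 fell in C57BL/6, where 28.2% were higher and 26.4% lower. The largest changes were those of Igfbp2 and Ncam1, an insulin-like growth factor binding protein and a cell adhesion molecule, both of which denervated muscle fibres are known to make. Igfbp2 had 61.1, 79.8 and 101.7 RPKM in BALB/c right legs, against 0.237, 0.119 and 0.058 RPKM in left legs.

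Jun, the transcription factor that drives the repair state of Schwann cells, had 122.9, 94.1 and 132.4 RPKM in BALB/c right legs, against 20.2, 44.5 and 28.5 RPKM in left legs. The C57BL/6 values of Jun were 118.1, 113.7 and 135.8 RPKM in right legs, against 17.7, 24.8 and 20.3 RPKM in left legs. Jun rose by 1.95 in BALB/c (limma's adjusted p = 7.6e-04) and by 2.53 in C57BL/6 (adjusted p = 4.7e-06). Its level was above that of Sox10 in every library, and Jun is made in many cell types of muscle.

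Gdnf, a trophic factor for motor neurons made by repair Schwann cells and by muscle, had 4.11, 3.25 and 8.01 RPKM in BALB/c right legs, against 0.111, 0.304 and 0.125 RPKM in left legs. The C57BL/6 values of Gdnf were 3.10, 2.38 and 2.93 RPKM in right legs, against 0.046, 0.046 and 0.123 RPKM in left legs. Gdnf rose in both strains, by 2.97 in BALB/c (limma's adjusted p = 1.7e-04) and by 2.53 in C57BL/6 (adjusted p = 3.5e-06). Artn, a trophic factor of the same family, had 2.65, 2.50 and 3.18 RPKM in BALB/c right legs, against 0.09, 0.121 and 0.118 RPKM in left legs. It rose by 2.42 in BALB/c (adjusted p = 2.9e-05) and by 0.64 in C57BL/6 (adjusted p = 0.00459), and this change differed between the strains by 1.78, with adjusted p = 0.00193. Jun, Gdnf and Artn were picked out after their values were seen.

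Olig1, a transcription factor of oligodendrocytes that repair Schwann cells switch on, was near the floor in left legs. Olig1 too was picked out after its values were seen. It had 0.408, 0.251 and 0.215 RPKM in BALB/c right legs, against 0, 0.025 and 0 RPKM in left legs, and rose with limma's adjusted p = 0.00472. In C57BL/6 it had 42 reads over the right legs and none over the left legs, at least 13.9-fold higher in right legs, and rose with adjusted p = 0.0429, a call that held in 1 of 5 fits without a library. Mcam was the repair-state gene that fell in BALB/c, with 7.89, 6.82 and 7.45 RPKM in right legs, against 9.09, 14.0 and 13.9 RPKM in left legs (adjusted p = 0.0168). Mcam is also a marker of vessel walls.

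Further genes of the Schwann lineage included the neuregulin receptors. Erbb3, through which axonal neuregulin keeps Schwann cells alive and sets myelin thickness, had 1.84, 1.80 and 1.76 RPKM in BALB/c right legs, against 0.615, 1.21 and 0.631 RPKM in left legs. In C57BL/6 it had 3.53, 3.38 and 3.18 RPKM in right legs, against 0.618, 0.536 and 0.454 RPKM in left legs. Erbb3 rose by 0.83 ± 0.20 in BALB/c (limma's adjusted p = 0.00884), a call lost after median-of-ratios rescaling, and by 1.90 ± 0.10 in C57BL/6 (adjusted p = 4.8e-06). Erbb2, its partner, rose by 1.68 in BALB/c and by 1.83 in C57BL/6. Both receptors are also made by muscle fibres at the endplate, and Erbb2 and Erbb3 each overlap another listed gene whose reads cannot be told apart without strand.

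Of the lineage list, 4 of 14 tested genes rose and 1 fell in BALB/c, where 42.5% of all tested genes were higher, and 8 of 12 rose and 2 fell in C57BL/6, where 63.6% were higher. In BALB/c the count that rose was 2 without right library 1 or 3 or left library 1 or 3, and the count that fell was 2 without left library 1 and 0 without any other library. The median change was 0.18 in BALB/c and 0.73 in C57BL/6. Rescaled by the median of ratios, 1 rose and 2 fell in BALB/c, where 21.8% of all tested genes were higher and 19.0% lower. On that scale 5 rose and 2 fell in C57BL/6, where 28.2% were higher and 26.4% lower. Dhh, the Desert hedgehog ligand that Schwann cells send to the perineurium, had 0.074, 0.077 and 0.073 RPKM in BALB/c right legs, against 0.168, 0.456 and 0.292 RPKM in left legs, and fell with limma's adjusted p = 0.0321. That call held in 1 of 6 fits without a library.

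Markers of other cells of muscle were counted against the same shares, 42.5% of all tested genes higher in BALB/c and 63.6% in C57BL/6. After median-of-ratios rescaling these shares were 21.8% and 28.2%. Of 11 macrophage markers, 9 rose in BALB/c and 11 in C57BL/6, and 7 and 11 after median-of-ratios rescaling. Their summed level was 187.3 to 303.2 RPKM in BALB/c right legs and 62.8 to 106.3 RPKM in BALB/c left legs, and 92.9 to 185.7 RPKM in C57BL/6 right legs and 9.99 to 13.4 RPKM in C57BL/6 left legs. Of 10 fibroblast markers, 5 rose and 3 fell in BALB/c and 9 rose in C57BL/6. In BALB/c the count that rose was 1 without right library 1 or 2 or left library 1 or 3, 3 without right library 3, and 0 after median-of-ratios rescaling. Among 10 endothelial markers, 1 rose and 1 fell in BALB/c, and 2 fell in C57BL/6. After rescaling 8 of them fell in BALB/c and 9 in C57BL/6, where 19.0% and 26.4% of all tested genes were lower. Among 9 pericyte and smooth muscle markers, 1 rose and 1 fell in BALB/c, and 2 rose in C57BL/6. After rescaling 4 of these fell in BALB/c and 6 in C57BL/6.

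Of 8 satellite cell markers, 4 rose in BALB/c and 6 in C57BL/6. After median-of-ratios rescaling 3 and 4 rose, where 21.8% and 28.2% of all tested genes were higher. Their summed level was 31.5 to 55.6 RPKM in BALB/c right legs and 12.1 to 17.8 RPKM in BALB/c left legs, and 22.1 to 42.3 RPKM in C57BL/6 right legs and 8.54 to 9.61 RPKM in C57BL/6 left legs. The genes whose pattern over the 12 libraries was most like that of Ngfr were Tubg2, a gamma-tubulin, at 0.22, and Myf5, a transcription factor of satellite cells and myoblasts, at 0.24. Myf5 had 7.04, 2.88 and 5.46 RPKM in BALB/c right legs, against 1.08, 1.27 and 0.647 RPKM in left legs. The part of these cells in the rise of Ngfr, Jun and Gdnf was not tested.

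No macrophage, fibroblast or satellite cell marker was at 0 in all libraries of a strain. Of the genes of axons and nodes, 3 of 7 tested rose in BALB/c, where 42.5% of all tested genes were higher, and 6 of 9 in C57BL/6, where 63.6% were. Gldn and Nrcam, adhesion molecules of the node of Ranvier, rose in both strains. Gldn averaged 2.74 RPKM in BALB/c right legs and 2.53 RPKM in C57BL/6 right legs, where Sox10 averaged 0.925 and 1.15 RPKM. Gldn overlaps another listed gene, and which cells made Gldn and Nrcam was not tested. The neurofilament gene Nefl and the motor neuron genes Chat and Slc18a3 were listed at 0 in all 6 libraries of BALB/c, as was Slc18a3 in C57BL/6. Of perineurial markers, 1 of 6 tested rose in BALB/c and 1 of 5 in C57BL/6, the glucose transporter gene Slc2a1 in both.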

How the data were processed

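The authors deposited RPKM values in 1 table per strain. Per the file headers, these came from HOMER with its mm9 annotation, exon reads of either strand and 1 transcript per gene, although the columns are named FPKM. HISAT2, DESeq2, GRCm38 and mm10 also appear in the submitters' processing notes, with no version. A build for the alignment was not given in the sources used here, and positions are printed in mm9 as listed. No member overlapped another listed gene. The tables were normalized separately, so levels were not tested across strains.

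Right legs were tested against left legs, two-sided, for genes averaging 0.1 RPKM or more in the 6 libraries of their table, with limma 3.58.1 in R 4.3.3 on log2(RPKM + 0.5), with eBayes and a trend and Benjamini-Hochberg adjustment over all tested genes. The strain difference was a contrast over all 12 libraries. Turned back into reads through transcript length and scaling total, 99.5% to 99.7% of nonzero values were whole within 0.1 read, and these reads entered limma-voom as an alternative. Floors of 3 reads and intervals cover counting error only.

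The 8 members and the 14 other gene lists were chosen with earlier results of these data known; a few genes of the lists are not reported here and not counted. From each list, up to 2 called genes with the largest change per strain and direction were drawn for naming. Where none was called, the gene with the largest change was drawn. Not every gene so drawn is named, and T cell markers are not reported. Other names come from the genes of like pattern or the strain difference, are marked as chosen after their values were seen, or are only listed. Alternatives were other pseudocounts (0.1, 1), filters (none, 1 RPKM), scalings (median of ratios, a common sum), eBayes without trend, the replicate number as a block, and leaving out each library.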

Additional observations from a re-analysis of the deposited data

Results flagged for a closer look

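The change in right legs differed between the strains, BALB/c minus C57BL/6 in limma with Benjamini-Hochberg adjustment over 14165 genes, for 8 genes of the Schwann cell lists or named from the other lists, and for no member. This contrast called 6.09% of all 14165 genes, and whether the lists hold more such genes than that share was not tested. Of the listed Schwann lineage and repair-state genes, the difference was -1.07 on the log2 scale for Erbb3 (adjusted p = 0.0189), 1.96 for Art3 (adjusted p = 0.00225), 1.78 for Artn (adjusted p = 0.00193) and -1.64 for Tnc (adjusted p = 0.0293). Which cells made these transcripts was not tested, and the level of Art3 was far above that of Sox10 in every library. Art3 stood at 189.6, 113.7 and 172.4 RPKM in BALB/c right legs and 101.1, 95.2 and 95.5 RPKM in BALB/c left legs, and at 51.5, 43.3 and 45.7 RPKM in C57BL/6 right legs and 110.2, 125.2 and 109.8 RPKM in C57BL/6 left legs, so its legs were apart in opposite directions. Its change in BALB/c was 0.67 (adjusted p = 0.0238), called in 1 of 6 fits without a library, and 0.15 and not called after median-of-ratios rescaling (adjusted p = 0.567). In C57BL/6 the change was -1.29 (adjusted p = 1.7e-05), called in 6 of 6 such fits. Of other cell types, the macrophage gene Cd68 differed by -2.89 (adjusted p = 0.00327), the collagen genes Col1a1 by -2.75 and Col1a2 by -2.90 (adjusted p = 0.00225 each), and the muscle fibre gene Mb by -2.52 (adjusted p = 0.0107). The transcript listed for Cd68 differed between the strains, with 808 bases in C57BL/6 and 1239 bases in BALB/c. That of Art3 differed too, with 1346 and 1314 bases. Col1a1 stood at 104.2, 81.9 and 84.0 RPKM in BALB/c right legs and 121.2, 160.0 and 181.1 RPKM in BALB/c left legs, and at 27.5, 55.7 and 42.7 RPKM in C57BL/6 right legs and 9.37, 11.7 and 8.55 RPKM in C57BL/6 left legs. Groups of 3 libraries were not screened for single outlying libraries.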

How the results depend on the processing

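Prx and Pmp22 in BALB/c and Ngfr in both strains kept their direction and their call under all alternatives that were run. The count of members called was 5 in BALB/c after median-of-ratios rescaling, against 3 as reported, and ran from 3 to 4 over fits without a library; in C57BL/6 it ran from 1 to 3, with 3 without left library 1. The strain difference called 307 to 1306 genes over fits without a library, against 862, and 0 to 1 members. Over the same fits, all genes called ran from 5943 to 7839 in BALB/c and from 9712 to 10289 in C57BL/6; over the other alternatives they ran from 5181 (a common sum) to 7581 (limma-voom) and from 7946 (median of ratios) to 10811 (no filter). With a pseudocount of 0.1, the BALB/c difference of the myelin level was -2.44 against the repair genes and -1.18 against Sox10. Without a library it ran from -2.12 to -1.54 and from -0.91 to -0.57 in BALB/c, and from -0.94 to 0.46 and from -0.66 to 0.04 in C57BL/6. Uncalled changes that turned sign were, after median-of-ratios rescaling, Mbp in BALB/c (-0.12) and Pmp22 (-0.55) and S100b (-0.18) in C57BL/6, and with limma-voom Mag in C57BL/6 (0.47). Over fits without a library, Mbp in BALB/c ran from -0.15 to 0.87 and Sox10 in BALB/c from -0.28 to 0.27, while in C57BL/6 Prx ran from -0.75 to 0.51, Mag from -0.34 to 0.19, Pmp22 from -0.63 to 1.28 and S100b from -0.21 to 0.62; leaving out left library 1 gave the upper end of all 4. The cause was not tested. The labels give both legs replicate numbers, but do not tie same-numbered legs to a mouse, so pairing was not assumed. Same-numbered legs deviated together weakly (correlations of 0.007 to 0.239, 3 of 6 over 0.1), against -0.192 to 0.111 for legs with different numbers. These values do not decide whether the legs are paired. With the replicate number as a block, limma called 3 members in BALB/c, 1 in C57BL/6 and 0 in the strain difference, and 6840, 10361 and 754 genes in all. Depth limits Gfap and Mag, at up to 3 and 23 reads per library.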
